A study of Mus musculus with 2 samples.

Results

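The 6 blood stem cell niche factors Cxcl12, Kitl, Il7, Angpt1, Vcam1 and Gas6 were followed in single cells of mouse bone from a vehicle (Veh) and a doxorubicin (Doxo) library. They were chosen by name, as 6 of the 21905 genes listed in both matrices. Each had unique molecular identifiers (UMIs, 1 per captured transcript) in both libraries. The comparisons ask which cells of the bone carry each factor and how its level differed between Veh and Doxo.

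Blood stem cells live beside stromal and vessel cells of the marrow that hold them in place and feed them with secreted and membrane-bound signals. The best known source is the CAR cell (Cxcl12-abundant reticular cell), a leptin receptor-positive perivascular stromal cell that can also give rise to fat and bone cells. Cxcl12 is the chemokine that retains blood stem cells and B cell precursors through its receptor Cxcr4. Kitl (stem cell factor) is the ligand of the receptor tyrosine kinase Kit on stem cells, and Il7 is the cytokine that early B and T cell precursors need. Angpt1 is the ligand of the receptor Tek on stem cells and vessel cells. Vcam1 is an adhesion molecule that binds the integrin made of Itga4 and Itgb1, and Gas6 is a vitamin K-dependent ligand of the receptors Tyro3, Axl and Mertk.

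Both libraries came from the femurs and tibias of female mice at an age of 12 weeks, C57BL/6 by the study's account of its treatment model, taken 96 h after treatment with vehicle or with doxorubicin at 10 mg/kg. Doxorubicin is an anthracycline that poisons topoisomerase and damages DNA. Bone fragments were digested with collagenase and depleted of cells with CD45, CD71 and Ter119, and by the labels also of CD31-positive cells, before a 3′ droplet assay. There was 1 library per condition, and the number of mice behind each was not given in the sources used here, so no test between Veh and Doxo was possible and no difference has a replicate check. Every interval in parentheses is a 95% interval for counting error alone, exact Poisson for levels, exact binomial (Clopper-Pearson) for shares of cells and exact conditional binomial for ratios. Levels are UMIs of a gene per 1000000 UMIs of the group of cells (CPM), and a ratio is the log2 of Doxo over Veh.

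Each matrix held 2488 cells, with 24859695 UMIs in Veh and 20792012 in Doxo and medians of 8693 and 7347.5 UMIs per cell, and 4 cell barcodes occurred in both. Cells were clustered without the 6 factors and named from marker lists that did not hold them. The CAR-like cluster (371 and 429 cells in Veh and Doxo) had 8 of 8 of its markers higher than the other cells. The other classes were bone and cartilage fibroblast-like (1089 and 1343 cells, 5 of 8 markers), arteriolar and endosteal fibroblast-like (430 and 263 cells, 7 of 8), chondrocyte-like (237 and 202 cells, 8 of 8), osteoblast-like (214 and 127 cells, 6 of 8) and endothelial-like (103 and 69 cells, 8 of 8), the last of a type that the CD31 depletion should have removed. A cluster of 44 and 55 cells led by Tmem196, Clic5, Pcbd1 and Rab37 stayed unnamed. RNA of other cell types lay unevenly over the libraries. In CAR-like cells the 6 erythroid markers summed to 520.1 CPM in Veh and 3.54 in Doxo, where Alas2 was at 0. The 8 osteoblast markers summed to 8661 and 2290 CPM, and the 8 immune markers to 535.9 and 106.8 CPM. Their part in the results was not tested.

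On the GRCm38 assembly with the GENCODE M21 annotation, Cxcl12 lies on the plus strand of chromosome 6 (117168535 to 117181367) and Kitl on the plus strand of chromosome 10 (100015630 to 100100416). The other 4 genes lie on minus strands, Il7 (7569994 to 7613760) and Vcam1 (116109949 to 116129688) on chromosome 3, Angpt1 on chromosome 15 (42424723 to 42676977) and Gas6 on chromosome 8 (13465374 to 13494490). Il7 and Angpt1 each overlap an antisense gene that the matrices list, Gm16685 and Gm17473. The largest overlap of a single exon block of the factor with the span of that gene, introns included, was 590 bases for Il7 and 737 for Angpt1. For Gas6 and the span of Tmem255b, on the opposite strand, the same measure was 527 bases. The kit marks strand, but whether the counting used it is not stated in the sources used here.

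RefSeq promoter windows (GRCm38.p6) were at hand for 3 of the 6 factors, Cxcl12, Kitl and Gas6. The 250 bases before the start of Cxcl12 (chr6:117168285-117168534, plus strand) and of Gas6 (chr8:13494536-13494785, minus strand) follow, the former because Cxcl12 had the most UMIs of the 6, the latter because Gas6 had the largest ratio of Doxo to Veh in CAR-like cells. Starts are those of RefSeq. The 50 bases after the Gas6 start were not found in a GENCODE transcript of the gene, and the Kitl window runs into the GENCODE gene, which begins before the RefSeq start. Capitals mark GC boxes (GGGCGG on either strand).
Cxcl12: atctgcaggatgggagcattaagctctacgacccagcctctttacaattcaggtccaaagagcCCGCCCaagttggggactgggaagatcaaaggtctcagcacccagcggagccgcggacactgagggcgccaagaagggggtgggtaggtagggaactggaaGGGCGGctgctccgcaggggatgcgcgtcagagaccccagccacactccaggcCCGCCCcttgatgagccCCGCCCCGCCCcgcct
Gas6: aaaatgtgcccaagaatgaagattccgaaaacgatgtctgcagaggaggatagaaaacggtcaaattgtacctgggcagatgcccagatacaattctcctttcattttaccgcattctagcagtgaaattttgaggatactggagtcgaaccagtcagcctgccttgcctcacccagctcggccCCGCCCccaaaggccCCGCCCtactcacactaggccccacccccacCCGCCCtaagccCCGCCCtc
The Cxcl12 window held 5 GC boxes and a GC content of 64.4%, the Gas6 window 4 and 54.8%, and the Kitl window 3 and 69.2%. A GC box occurred in 32.7% of 32851 RefSeq promoter windows of the same length, whose median GC content was 52.4%. Of the 3 windows, the Kitl window held a TATA box (TATAAA), 25 bases before the start, as did 12.4% of all windows. On both strands, an Ebf core (TCCC and GGGA set 2 bases apart), a forkhead core (TGTTTAC) and a Cebp core (TTGC and AA set 2 bases apart) were found in 0 of the 3 windows, against 0.779%, 3.17% and 9.56% of all windows. A kappaB core (GGGA and CC set 4 bases apart) occurred at 3 places in the Kitl window, some of them overlapping, and in 17.6% of all windows.

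All 6 factors had their highest level in CAR-like cells in both libraries. Set against all other cells together, the level in CAR-like cells was 84.4-fold higher for Cxcl12 in Veh and 113.5-fold in Doxo. The fold was 66.5 and 96.1 for Kitl, 47.6 and 90.6 for Il7, 24.9 and 59.2 for Angpt1, 52.4 and 71.5 for Vcam1, and 11.7 and 20.15 for Gas6. CAR-like cells made up 14.9% of the Veh cells and held 90.5% of the library's Cxcl12 UMIs, and in Doxo they were 17.2% of the cells and held 95.7%. Gas6 was the most widely spread factor, with 57.1% of its UMIs in CAR-like cells in Veh and 79.7% in Doxo. By UMIs in CAR-like cells, Cxcl12 had rank 2 of 16423 genes in Veh and rank 2 of 16602 in Doxo.

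**Figure D1:**
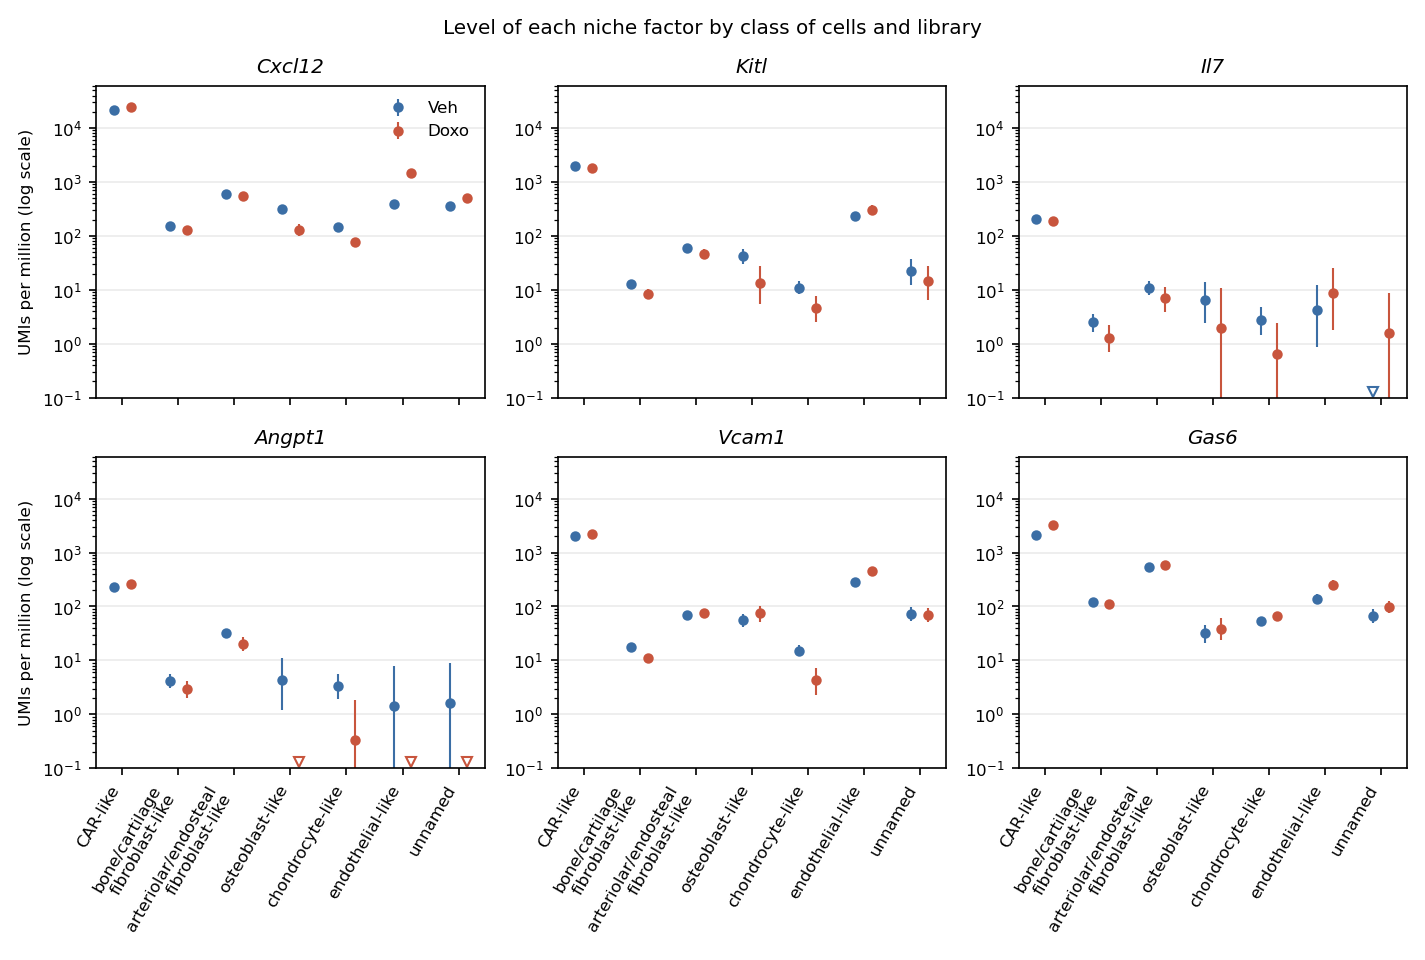
Each panel plots the level of a niche factor in CPM on a log axis against the class of cells, in blue for Veh and red for Doxo, with 95% Poisson intervals for counting error. Open triangles at the bottom mark classes with 0 UMIs, and the CAR-like points are the highest in all 6 panels.

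The class next to CAR-like cells differed between the factors. For Kitl and Vcam1 it was the endothelial-like class in both libraries. Kitl there was at 236.8 CPM in Veh and 302.9 in Doxo, and the CAR-like level was 8.45-fold and 5.94-fold higher. For Gas6 and Angpt1 the arteriolar and endosteal fibroblast-like class was next, with Gas6 at 530.8 CPM in Veh and 584.0 in Doxo and Angpt1 at 32.7 CPM in Veh and 20.5 in Doxo. Cxcl12 was next highest in Veh in that class (600.6 CPM) and in endothelial-like cells in Doxo (1494 CPM). For Il7 the classes below the CAR-like one were not separated from their next neighbour within counting error at the top of that order, with 10.8 CPM for the arteriolar and endosteal class of Veh and 8.57 CPM in endothelial-like cells of Doxo. For Cxcl12 the endothelial-like, unnamed and osteoblast-like cells of Veh followed each other without a gap beyond counting error, and so did the bone and cartilage fibroblast-like and chondrocyte-like cells. In Doxo the same held for arteriolar and endosteal fibroblast-like with unnamed cells and for bone and cartilage fibroblast-like with osteoblast-like cells.

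The shares of cells with a UMI gave the same source. With each cell thinned to 2000 UMIs, which 354 of 371 Veh and 418 of 429 Doxo CAR-like cells reached, Cxcl12 was detected in 98.9% (97.1 to 99.7) and 99.5% (98.3 to 99.9) of CAR-like cells, against 5.19% (2.71 to 8.90) and 8.63% (5.11 to 13.5) of chondrocyte-like cells, which are not known as a source. Without thinning it was detected in 98.9% of Veh and in all 429 Doxo CAR-like cells (median depths 6226 and 7324 UMIs), and in 30.0% and 32.7% of the deeper chondrocyte-like cells (19653 and 14589 UMIs). Cxcl12 detection thus followed depth in chondrocyte-like cells. In CAR-like cells it was near its ceiling and could hardly do so, while detection of Il7 and Angpt1 there did fall on thinning. Thinned, Kitl was detected in 92.7% (89.4 to 95.1) and 90.4% (87.2 to 93.1) of CAR-like cells, Vcam1 in 89.3% (85.6 to 92.3) and 94.5% (91.9 to 96.5), Gas6 in 89.3% (85.6 to 92.3) and 95.7% (93.3 to 97.4), Angpt1 in 37.3% (32.2 to 42.6) and 40.9% (36.2 to 45.8), and Il7 in 32.2% (27.4 to 37.3) and 31.6% (27.1 to 36.3). Unthinned, the shares were 96.8% and 97.9% for Kitl, 94.9% and 97.4% for Vcam1, 96.8% and 98.6% for Gas6, 70.6% and 75.8% for Angpt1, and 63.3% and 64.6% for Il7. In thinned chondrocyte-like cells Il7 and Angpt1 were found in 0 of 231 Veh and 0 of 197 Doxo cells, which allows shares of up to 1.30% and 1.52% of cells with a UMI. Gas6 was the factor with a broad share elsewhere, thinned in 52.7% and 56.3% of arteriolar and endosteal fibroblast-like cells, against 4.76% and 10.2% of chondrocyte-like cells.

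Outside the CAR-like class the Cxcl12 UMIs sat in few cells. In bone and cartilage fibroblast-like cells the 10% of cells with most Cxcl12 held 76.8% of its UMIs in Veh and 62.8% in Doxo, and in chondrocyte-like cells 93.0% and 79.5%. In CAR-like cells the same share of cells held 21.8% and 22.5%. A small number of cells in the other classes carried UMIs of both Adipoq and Lepr, markers of CAR cells. These were 4 of 237 chondrocyte-like cells in Veh, with 84.8% of that class's Cxcl12 UMIs, and 2 of 202 in Doxo, with 53.7%. In bone and cartilage fibroblast-like cells 22 Veh cells held 53.3% of the Cxcl12 UMIs and 18 Doxo cells 14.7%. Ratios outside the CAR-like class are therefore given with and without such cells, a choice made after their values were seen. Lepr was detected in 44.1% of Veh and 30.8% of Doxo bone and cartilage fibroblast-like cells, and in 35.6% and 27.8% of arteriolar and endosteal ones. Adipoq was detected in 4.04% and 3.72% of the former and 4.42% and 5.70% of the latter. In these classes Lepr thus sets such cells apart less than Adipoq does.

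Within CAR-like cells, Gas6 was the factor that differed by more than 1.5-fold, and the other 5 differed by less. Past 1.5-fold, 1 of 6 factors was higher and 0 were lower in Doxo, against 13.1% and 9.5% of the 11522 genes with at least 20 UMIs in these cells over both libraries. The median ratio of all these genes was 0.059.

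Cxcl12, the retention chemokine, was at 21684 CPM (21504 to 21866) in Veh and 24348 CPM (24182 to 24515) in Doxo CAR-like cells. The ratio was 0.17 (0.15 to 0.18), so that Doxo was 1.12-fold higher. The median cell held 134 Cxcl12 UMIs in Veh and 182 in Doxo. From the 10th to the 90th percentile the cells ran from 42 to 269 UMIs in Veh and from 56 to 347.2 in Doxo, a wide overlap. As a difference of mean deposited log2 values per cell, which weighs cells equally on a compressed scale, it was -0.031.

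The cytokines Kitl and Il7 had ratios below 0. Kitl was at 2001 CPM (1946 to 2057) in Veh and 1800.2 CPM (1755 to 1846) in Doxo, and its ratio was -0.15 (-0.21 to -0.10). The median cell held 12 Kitl UMIs in Veh and 12 in Doxo. Il7 was at 204.8 CPM (187.6 to 223.2) and 187.4 CPM (173.1 to 202.5), with a ratio of -0.13 (-0.30 to 0.042), so a difference in Il7 was not detectable at this depth in the pooled cells. The median CAR-like cell held 1 Il7 UMI in each library. Cells were also gated by UMIs of at least 2 of Lepr, Adipoq and Ebf3 in place of the cluster. The direction then turned for both, to 0.12 for Kitl and 0.10 for Il7. Of the gated cells, 360 of 460 in Veh and 420 of 490 in Doxo lay in the CAR-like cluster. The part of the gated cells from other classes was not tested. The antisense gene Gm16685 on the opposite strand of Il7, named here after its values were seen, was at 181.1 CPM in Veh and 69.6 in Doxo, and its ratio was -1.38 (-1.61 to -1.15).

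Angpt1, the Tek ligand, was at 231.2 CPM (212.9 to 250.7) in Veh and 261.7 CPM (244.8 to 279.5) in Doxo, with a ratio of 0.18 (0.026 to 0.33). Vcam1, the adhesion molecule, was at 2031 CPM (1976 to 2087) in Veh and 2212 CPM (2162 to 2262) in Doxo, with a ratio of 0.12 (0.072 to 0.17). Its median per cell was 10 UMIs in Veh and 15 in Doxo. Both factors were slightly higher in Doxo in the pooled cells, well inside 1.5-fold, and without the population of CAR-like cells led by Il6 and Ccl2, nearly all from Veh, the Vcam1 ratio was 0.49.

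Gas6 was at 2119 CPM (2062 to 2176) in Veh and 3293 CPM (3232 to 3355) in Doxo, 1.55-fold higher, with a ratio of 0.64 (0.59 to 0.68). The median CAR-like cell held 10 Gas6 UMIs in Veh and 21 in Doxo, and the upper quartile lay at 20 and 37 UMIs. In 11 of 11 other ways of weighting, thinning, clustering and filtering the cells on the UMI scale it stayed past 1.5-fold, between 0.59 and 0.84. As a difference of mean deposited log2 values it was 0.12, and within a single population of CAR-like cells it was at most 0.50, short of 1.5-fold.

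**Figure D2:**
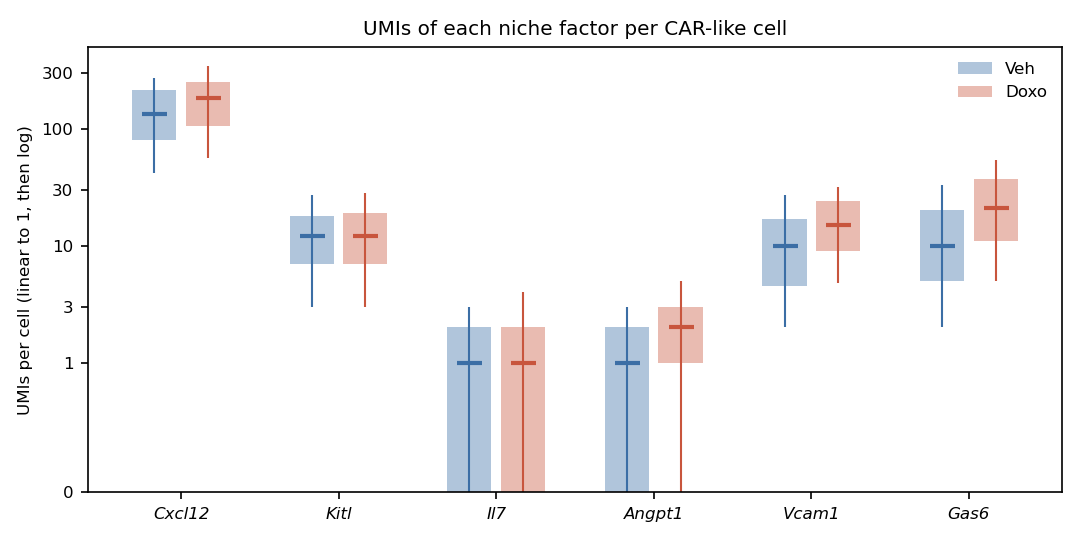
UMIs of each niche factor per CAR-like cell in Veh (371 cells, blue) and Doxo (429 cells, red), on an axis that is linear to 1 and logarithmic above. Boxes span the 25th to 75th percentile of cells, vertical lines the 10th to 90th percentile, and horizontal ticks the median, which for Gas6 is 10 in Veh and 21 in Doxo.

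Most CAR-like cells held UMIs of several factors. Of the CAR-like cells, 46.6% in Veh and 51.7% in Doxo held a UMI of all 6, and 95.7% and 96.7% held at least 4. Thinned to 2000 UMIs, 88.1% of Veh and 90.7% of Doxo cells held at least 4, and 9.32% and 11.7% held all 6. Cxcl12, Kitl, Vcam1 and Gas6 were each detected in most of these cells. A high share with at least 4 thus follows from the single shares, and co-detection beyond them was not tested. Across CAR-like cells of a library, Spearman's rho between levels per cell was highest for Cxcl12 with Gas6 (0.43 in Veh and 0.58 in Doxo) and Cxcl12 with Kitl (0.43 and 0.41), and no other pair was above 0.34. The cells share a library and differ in depth, and Il7 and Angpt1 are sparse, so these values are descriptions.

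CAR-like cells clustered alone, again without the 6 factors, fell into 4 populations whose shares differed between the libraries. Population 1, led over both libraries together by Hba-a1, Hbb-bs, Bglap, Hspa1a and Fos, was 61.5% of Veh and 28.7% of Doxo CAR-like cells. Its erythroid markers summed to 777.8 CPM in Veh and 7.10 in Doxo, and its osteoblast markers to 10376.5 and 2757.5 CPM. The Veh and Doxo cells of population 1 were thus not alike in these markers. Population 2, led by Fabp4, Fabp5, Ifit1 and G0s2, was 11.3% of Veh and 64.3% of Doxo cells. Population 3, led by Il6, Ccl2, Cxcl1 and Gdf15, had 84 Veh and 7 Doxo cells. Population 4, with 17 and 23 cells, was led by Acan, Hapln1 and other cartilage and fibroblast genes and was the deepest, with medians of 12952 and 19216 UMIs per cell. In the other 4 clustering settings the CAR-like cells fell into 3 populations with other bounds, so these are ranges of cells and not types.

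Within populations, Vcam1 and Gas6 were higher in Doxo in 3 of the 4 and Il7 was lower in the 2 largest. As background, the median ratio of all genes counted was -0.061 in population 1 (quartiles -0.37 and 0.25) and -0.094 in population 2 (-0.44 and 0.26). It was 0.028 in population 3 (-0.53 and 0.51) and -0.0085 in population 4 (-0.41 and 0.42). Shares of genes past 1.5-fold were not counted by population. The Vcam1 ratio was 0.51 (0.42 to 0.60) in population 1, 0.51 (0.38 to 0.63) in population 2 and 0.46 (0.20 to 0.74) in population 4, each above the 0.12 of the pooled cells. In population 3 Vcam1 stood at 3158 CPM in Veh and 3197 in Doxo, above population 1 with 1678 and 2389.7 CPM. Population 3 thus held the highest Vcam1 levels and was nearly all from Veh. The Gas6 ratio was 0.50 (0.42 to 0.58) in population 1, 0.49 (0.39 to 0.59) in population 2 and 0.47 (0.23 to 0.71) in population 4, each short of 1.5-fold, and 0.077 (-0.18 to 0.32) in population 3.

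Il7 was at 216.4 CPM in Veh and 133.5 in Doxo in population 1, where its ratio was -0.69 (-1.05 to -0.35). In population 2, with 42 Veh cells, it was at 317.8 CPM in Veh and 226.6 in Doxo. Its ratio there was -0.49 (-0.79 to -0.18), near the lower quartile of all genes in that population (-0.44). Both intervals lie below 0, unlike that of the pooled cells, and in each library the level was higher in population 2 than in population 1.

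For Cxcl12, Kitl and Angpt1 the largest populations did not share a direction. The Cxcl12 ratio was -0.074 (-0.10 to -0.047) in population 1 and 0.24 (0.21 to 0.28) in population 2. The Kitl ratio was -0.28 (-0.37 to -0.19) and 0.13 (0.010 to 0.26). The Angpt1 ratio was -0.13 (-0.41 to 0.14) and 0.23 (-0.090 to 0.58), both intervals including 0.

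**Figure D3:**
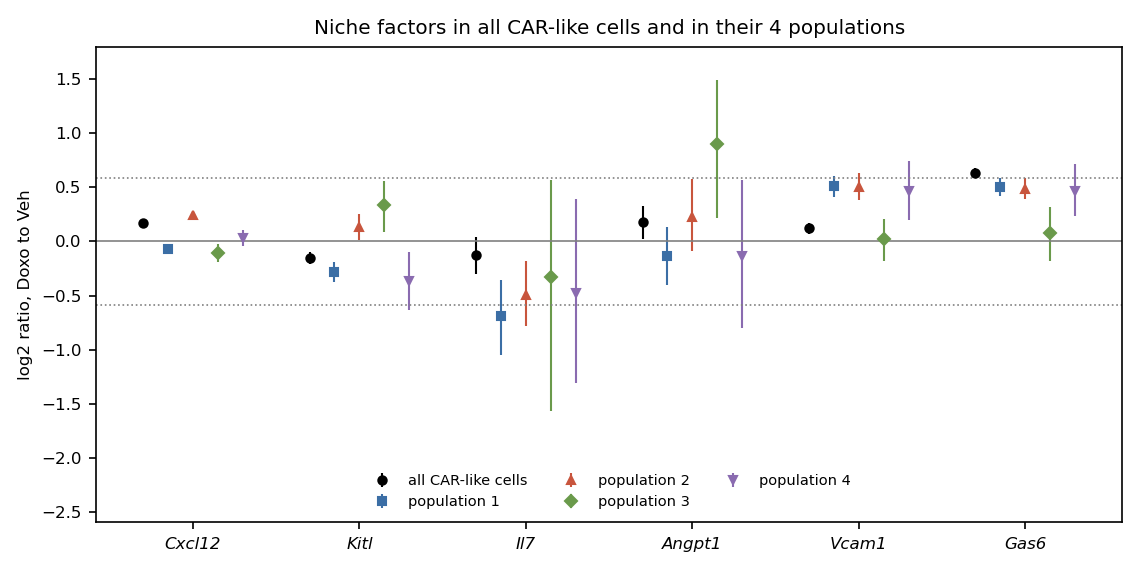
The log2 ratio of Doxo to Veh of each niche factor in all CAR-like cells (black) and in populations 1 to 4 (blue squares, red triangles, green diamonds, purple triangles), with 95% intervals for counting error. Dotted lines mark 1.5-fold, and Vcam1 lies at 0.51 in populations 1 and 2 and at 0.12 in all CAR-like cells.

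Endothelial-like cells, which line the marrow vessels, were the class outside the CAR-like cluster where factors were higher in Doxo past 1.5-fold. Of the 4 factors with at least 20 UMIs there, 3 were higher past 1.5-fold and 0 lower, against 14.5% and 10.5% of all genes counted in that class. Cxcl12 was at 395.2 CPM (350.0 to 444.6) in Veh and 1494 CPM (1369 to 1628) in Doxo, with a ratio of 1.92 (1.71 to 2.13). In Doxo 1 cell held 232 of the 523 Cxcl12 UMIs. Without the 4 Veh cells and 1 Doxo cell that carried both Adipoq and Lepr, the ratio was 1.11 (0.86 to 1.35), on 266 and 291 UMIs. The share of endothelial-like cells with a Cxcl12 UMI was 54.4% in Veh and 53.6% in Doxo, and 32.3% (23.1 to 42.6) and 39.3% (27.1 to 52.7) when thinned. The sum of the CAR markers was higher in Doxo as well in this class, though not each marker was. The 8 CAR markers summed to 429.5 CPM in Veh and 1054 in Doxo, and among them Hp went from 7.13 to 174.3 CPM and Lpl from 59.9 to 308.6. Lpl was detected in 14.6% of Veh and 27.5% of Doxo endothelial-like cells, more cells than carried both Adipoq and Lepr. Adipoq went from 15.7 to 120.0 CPM but was detected in 7.77% of Veh and 4.35% of Doxo cells. Lepr went the other way, from 52.8 to 42.9 CPM, in 22.3% and 10.1% of cells. The part of these markers in the Cxcl12 difference was not tested.

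Endothelial-like Vcam1, on vessel cells a docking molecule for blood cells, was at 283.9 CPM (245.8 to 326.2) in Veh and 460.0 CPM (391.7 to 536.8) in Doxo, with a ratio of 0.70 (0.39 to 1.00), or 0.66 (0.33 to 0.99) without the cells that carried Adipoq and Lepr. Endothelial-like Gas6 was at 139.8 CPM in Veh and 254.3 in Doxo, with a ratio of 0.86 (0.43 to 1.29), or 0.086 (-0.44 to 0.58) without those cells. In other ways of weighting, thinning, clustering and filtering, the Vcam1 ratio was past 1.5-fold in 5 of 9, with a lowest value of 0.48, and the Gas6 ratio in 6 of 9, with a lowest value of -0.21. Without the cells that carried Adipoq and Lepr the Vcam1 difference was close to that with all cells, and the interval of the Gas6 ratio included 0. The Kitl ratio was 0.36 (-0.011 to 0.71), within 1.5-fold. Il7 had 3 and 3 UMIs in this class, and Angpt1 1 in Veh and 0 in Doxo, which allows up to 8.57 CPM.

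In the connective tissue classes the differences past 1.5-fold were all toward lower in Doxo, and several ratios had intervals including 0 without the cells that carried Adipoq and Lepr. The summed CAR markers were lower in Doxo as well, from 518.6 to 420.2 CPM in bone and cartilage fibroblast-like cells, 1049 to 1009 in arteriolar and endosteal, 460.0 to 253.8 in osteoblast-like and 416.9 to 304.0 in chondrocyte-like cells, and their part in the differences was not tested. In bone and cartilage fibroblast-like cells 3 of 6 factors were lower and 0 higher, against 9.28% and 4.31% of all genes counted. Kitl was at 13.0 CPM in Veh and 8.29 in Doxo (ratio -0.64, -1.04 to -0.25), Vcam1 at 17.8 CPM in Veh and 11.2 in Doxo (ratio -0.67, -1.01 to -0.34), and Il7 at 2.52 CPM in Veh and 1.30 in Doxo (ratio -0.92, -1.99 to 0.025). Without the cells with Adipoq and Lepr the Kitl ratio was -0.042 (-0.57 to 0.49), the Vcam1 ratio -0.031 (-0.44 to 0.38) and the Il7 ratio -0.58 on 14 and 9 UMIs. Cxcl12 went from -0.24 (-0.34 to -0.14) with all cells to 0.60 (0.47 to 0.73) without them. The ratios of Angpt1, -0.47 (-1.17 to 0.21), and Gas6, -0.094 (-0.21 to 0.019), were within 1.5-fold with intervals that include 0.

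In arteriolar and endosteal fibroblast-like cells 2 of 6 factors were lower and 0 higher, against 9.85% and 6.93% of genes. The Angpt1 ratio was -0.66 (-1.20 to -0.18), or -0.51 (-1.05 to -0.016) without cells with Adipoq and Lepr. The Il7 ratio was -0.60 (-1.58 to 0.23) on 46 and 15 UMIs. Gas6, the factor best detected in this class, had a ratio of 0.14 (0.037 to 0.24). Cxcl12 went from -0.11 (-0.21 to -0.011) with all cells to 0.38 (0.28 to 0.49) without those with Adipoq and Lepr, and Vcam1 from 0.10 (-0.19 to 0.38) to 0.38 (0.077 to 0.68). The Kitl ratio was -0.36 (-0.71 to -0.025), within 1.5-fold.

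In osteoblast-like cells 2 of the 4 factors counted were lower and 0 higher, against 20.5% and 11.7% of genes. Cxcl12 was at 315.8 CPM in Veh and 128.8 in Doxo (ratio -1.28, -1.70 to -0.90). Without 2 Veh cells with Adipoq and Lepr, which held 50.9% of the class's Cxcl12 UMIs, the ratio was -0.31 (-0.76 to 0.12). Kitl, on 39 and 7 UMIs, had a ratio of -1.56 (-3.05 to -0.46), or -0.59 (-2.14 to 0.67) without those cells. The Vcam1 ratio was 0.42 (-0.23 to 1.05) and became 0.87 (0.17 to 1.57), and the Gas6 ratio was 0.31 (-0.60 to 1.17). The intervals of both lower factors thus lay below 0 with these 2 Veh cells and included 0 without them.

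In chondrocyte-like cells 3 of the 4 factors counted were lower and 0 higher, against 11.8% and 14.9% of genes. The Cxcl12 ratio was -0.92 (-1.15 to -0.71) with all cells and 0.65 (0.25 to 1.06) without the 4 Veh and 2 Doxo cells with Adipoq and Lepr. The Vcam1 ratio went from -1.79 (-2.81 to -0.97) to -0.19 (-1.58 to 1.04), and Kitl, with a ratio of -1.22 (-2.22 to -0.38), was left with 11 and 4 UMIs. The Gas6 ratio was 0.30 (0.028 to 0.57), and 0.62 (0.30 to 0.93) without those cells.

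In the unnamed cluster 1 of 4 factors was lower (Kitl, on 14 and 9 UMIs) and 0 were higher, against 10.1% and 12.5% of genes. Il7 and Angpt1 had under 20 UMIs in osteoblast-like, chondrocyte-like, endothelial-like and unnamed cells, and no ratio is read there.

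**Figure D4:**
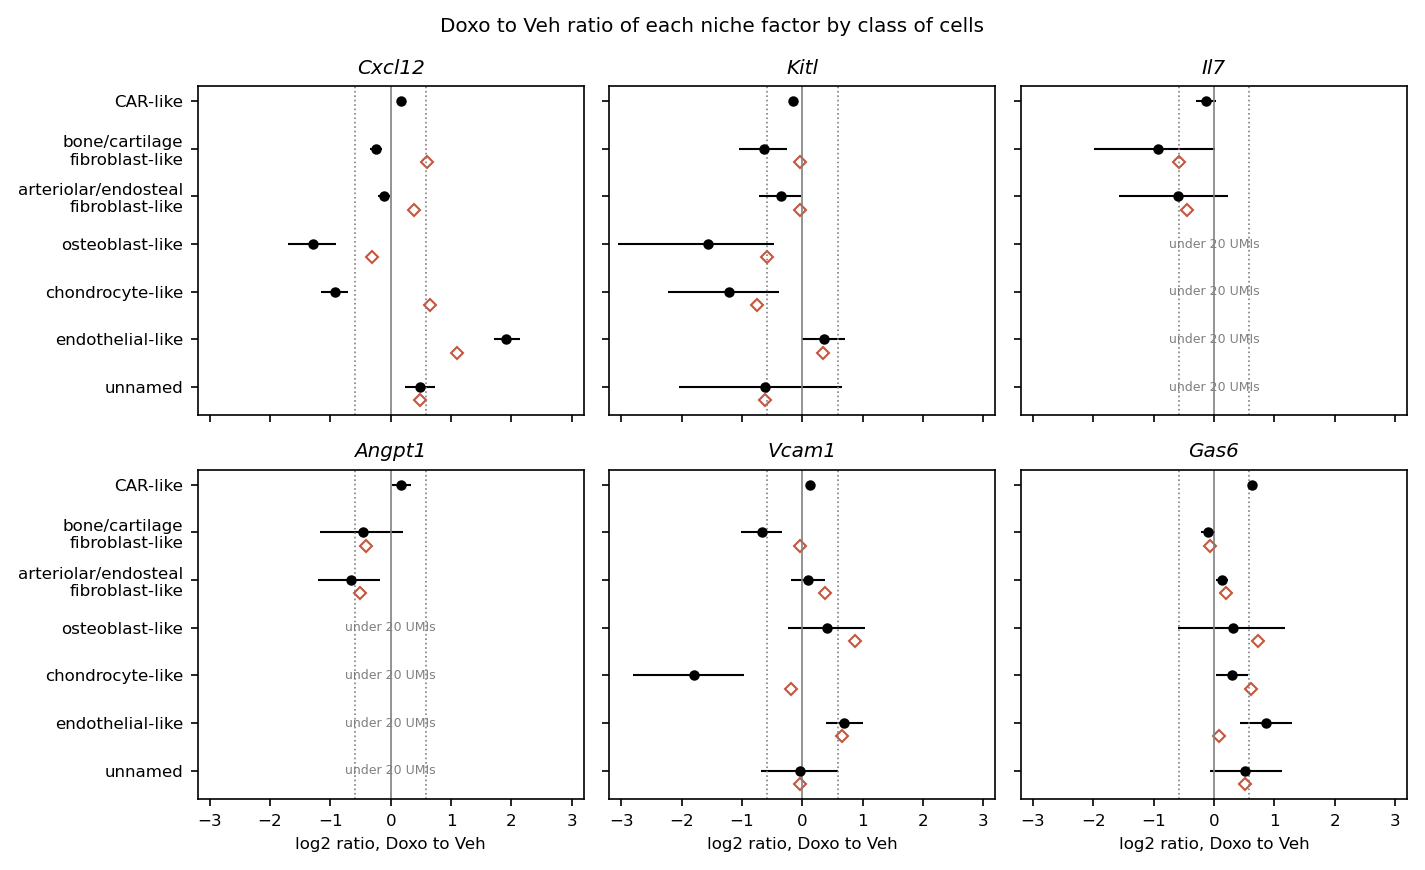
Each panel plots the log2 ratio of Doxo to Veh of a niche factor in every class of cells, as black points with 95% intervals for counting error. Red diamonds give the ratio without cells outside the CAR-like class that held UMIs of both Adipoq and Lepr, and dotted lines mark 1.5-fold; the Cxcl12 diamond in chondrocyte-like cells lies at 0.65 and the black point at -0.92.

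Over each library as a whole, Cxcl12 was at 2441 CPM in Veh and 4148 in Doxo and Gas6 at 378.0 and 673.5 CPM, while CAR-like cells held 10.2% of all UMIs in Veh and 16.3% in Doxo. In such whole-library values the number of CAR-like cells and the RNA of each cannot be told apart.

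Beside the 6 factors, 60 other niche genes in 6 roles were read in CAR-like cells. Of these, 45 had at least 20 UMIs, of which 7 were higher and 10 lower past 1.5-fold and 28 within, with a median ratio of -0.020 beside 0.059 for all genes. Of all genes counted in CAR-like cells, 13.1% were higher and 9.5% lower past 1.5-fold. These shares are also the background of the counts by role that follow. The 5 ligands that share a receptor or receptor chain with a member had 0 higher and 2 lower. Angpt2, the vessel-destabilizing partner of Angpt1 at Tek, was at 76.2 CPM in Veh and 36.0 in Doxo, with a ratio of -1.08 (-1.42 to -0.75). It was lower in population 1, at -1.47 (-2.14 to -0.88), and not in population 2, at 0.14 (-0.69 to 1.20). The other lower gene, Tslp, had 14 and 12 UMIs and an interval that includes 0. Pros1, which shares the Tyro3 and Mertk receptors with Gas6, was within 1.5-fold at -0.36 (-0.55 to -0.18).

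Among 6 receptors counted, 3 were higher and 1 lower. Kit, the receptor of Kitl, was at 50.9 CPM in Veh and 125.7 in Doxo, with a ratio of 1.30 (1.02 to 1.60), and was detected in 11.9% and 25.4% of CAR-like cells. Among bone and cartilage fibroblast-like cells, not known to carry Kit, it was detected in 1.29% and 1.41%, at median depths of 9719 and 7327 UMIs. Its ratio was 1.82 (1.37 to 2.29) within population 1 and -0.050 (-0.49 to 0.45) within population 2. The populations thus differed in the size of the Kit ratio, and the difference was not tested. Axl, a Gas6 receptor, was higher by 0.76 (0.22 to 1.34) and Ackr3, the scavenging receptor of Cxcl12, by 0.90 (0.12 to 1.77) on 19 and 48 UMIs. Of the Ackr3 UMIs, 11 in Veh and 43 in Doxo lay in the few cells of population 4, the one led by cartilage and fibroblast genes. Populations 1 and 2 together, with most of the cells, held the remaining 8 and 5. Il2rg, the common chain of the Il7 receptor, was lower at -1.25 (-2.49 to -0.15) on 20 and 11 UMIs. The stem cell receptor Cxcr4 had 7 and 4 UMIs in these cells, Tek 0 and 0 and Il7r 2 and 2.

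Of 15 other niche ligands counted, 3 were higher and 5 lower. The interleukin 6 family cytokines Il6 (-3.10, -3.69 to -2.58), Lif (-4.02, -5.81 to -2.85) and Il11 (-2.09, -3.25 to -1.12) were lower in Doxo. Of the 214 Il6 UMIs in Veh, 206 lay in population 3, and of the 66 Lif UMIs 60. Within population 3, with 7 Doxo cells, the Il6 ratio was -0.16 (-0.98 to 0.50), and Lif had 60 UMIs in Veh and 0 in Doxo. Of the 36 Il11 UMIs in Veh, 17 lay in the 17 cells of population 4, where its ratio was -2.88 (-5.04 to -1.39). The growth factors Ptn (-0.87, -1.18 to -0.58) and Bmp6 (-0.66, -0.83 to -0.50) were lower in the pooled cells as well. In population 2, which held most Doxo CAR-like cells, Ptn was higher, at 2.29 (0.92 to 4.80) on 3 and 107 UMIs, and the Bmp6 ratio was 0.13 (-0.26 to 0.56), while in population 1 both were lower, at -0.81 (-1.36 to -0.32) and -0.68 (-0.98 to -0.39). Spp1, the matrix phosphoprotein osteopontin, was higher by 1.06 (0.97 to 1.16), the Notch ligand Jag1 by 0.60 (0.27 to 0.93) and Wnt5a by 1.03 (0.39 to 1.76). The Spp1, Wnt5a and Jag1 ratios varied by population. Of the 3776 Spp1 UMIs of Doxo, 1491 lay in the 23 cells of population 4, and the Spp1 ratio was 1.20 (1.05 to 1.35) in population 1, 0.32 (0.10 to 0.56) in population 2 and -1.23 (-2.17 to -0.51) in population 3. The Wnt5a ratio was 2.15 (0.79 to 3.86) in population 1 and -0.52 (-1.43 to 0.62) in population 2. The Jag1 ratios in those populations were 0.65 (0.037 to 1.26) and 0.60 (-0.10 to 1.48). In population 3, with 7 Doxo cells, the Jag1 ratio was 2.24 (1.42 to 2.98) on 47 and 22 UMIs.

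The 5 adhesion and matrix genes counted were all within 1.5-fold. Of 8 proteases that can cut niche factors, 2 were lower, Elane (-2.34, -3.15 to -1.64) and Mmp9 (-1.82, -3.26 to -0.66), and 0 higher. Elane is a neutrophil granule enzyme, as is Ctsg of the same list, which was within 1.5-fold at -0.020 (-0.69 to 0.67). The summed immune markers were lower in Doxo CAR-like cells, and their part in the Elane difference was not tested. Elane was also lower in bone and cartilage (-1.69, -2.04 to -1.36) and arteriolar and endosteal fibroblast-like cells (-1.63, -2.75 to -0.76). Its intervals in osteoblast-like, chondrocyte-like and endothelial-like cells included 0. Of 6 regulators of the CAR cell program, Nr2f2 was higher by 0.67 (0.19 to 1.17), with 1.03 (0.18 to 1.90) in population 1 and -0.29 (-1.11 to 0.74) in population 2, and the other 5 were within 1.5-fold, among them Foxc1 (-0.076, -0.19 to 0.041) and Ebf3 (0.26, 0.17 to 0.35), the factors known to keep CAR cells from other fates.

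**Figure D5:**
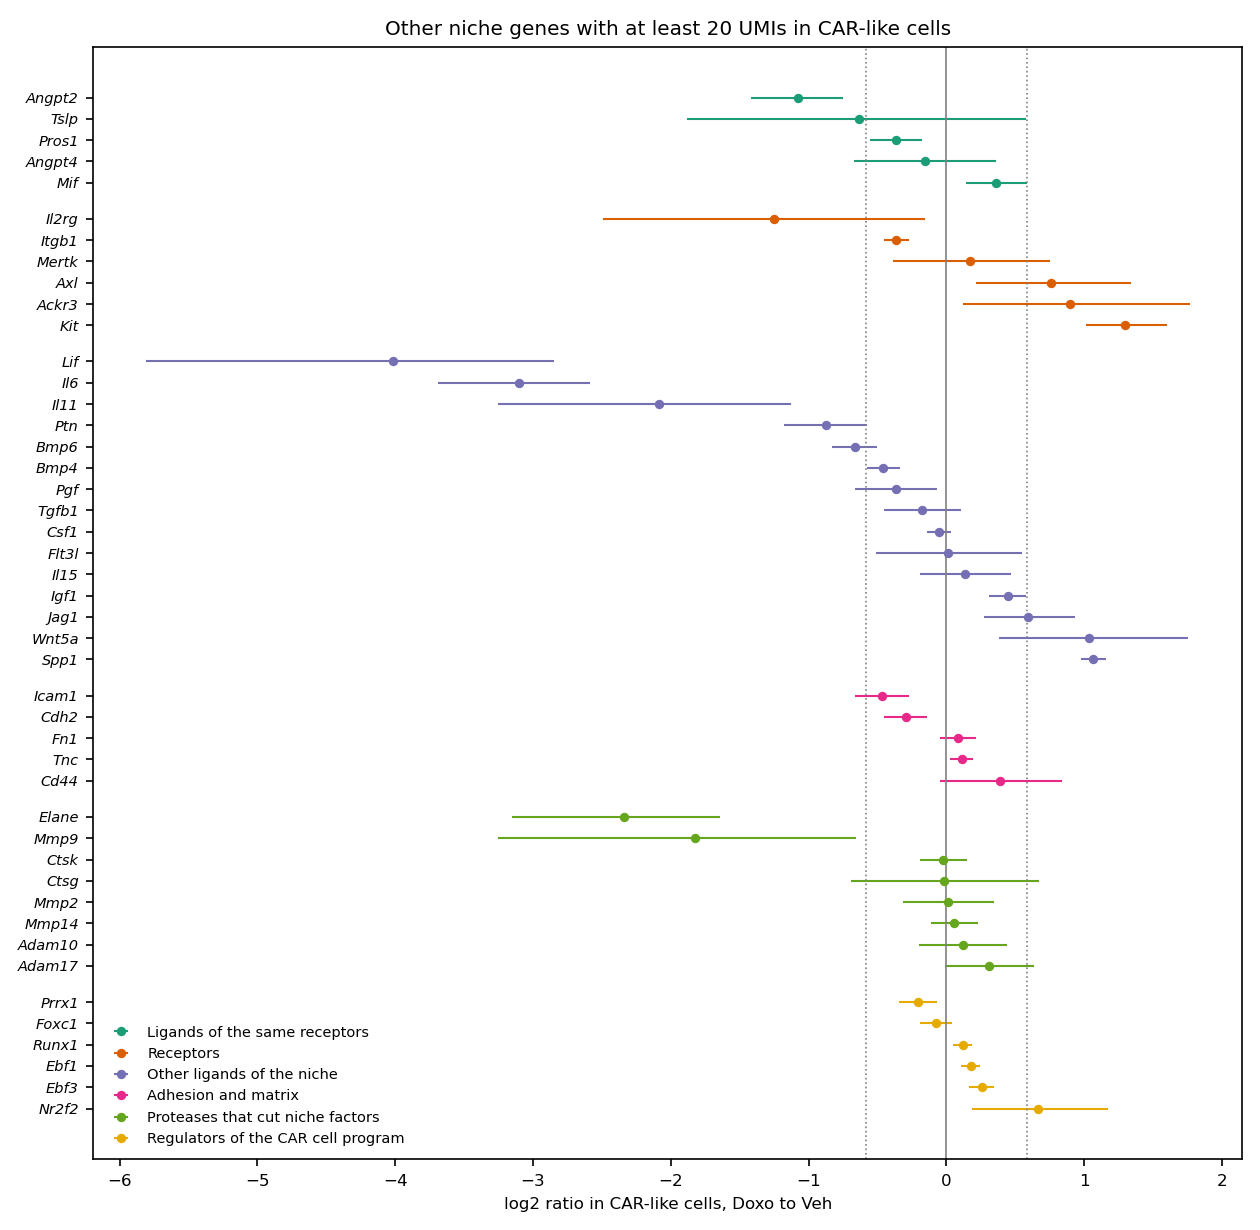
The log2 ratio of Doxo to Veh in CAR-like cells for the 45 other niche genes with at least 20 UMIs there, coloured by role, with 95% intervals for counting error. Dotted lines mark 1.5-fold, and Lif, Il6, Elane and Il11 have the lowest ratios and Kit the highest.

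Genes with a pattern most like each factor were read from the level in 14 points, each a class of cells in a library, among 10694 genes with at least 200 UMIs, by Pearson's r of log levels. Cxcl12 was most like Lpl (0.99), Ebf3 (0.97) and Samhd1 (0.96). Kitl was most like Tmem86a (0.98), St5 (0.97) and Rcbtb2 (0.97), and Vcam1 like Rcbtb2 (0.98), Ltbr (0.97) and Kitl (0.96). Il7 was most like Kng2 (0.97), Prr16 (0.96) and Ptx3 (0.95). Angpt1 was most like Gsta4 (0.97), Mdk (0.96) and Otulinl (0.96), and Gas6 like Ms4a4d (0.95), Cop1 (0.95) and Anxa6 (0.94). Between the factors themselves r ran from 0.59 for Angpt1 with Vcam1 to 0.96 for Kitl with Vcam1. The points share the 2 libraries, and the CAR-like class sets most of the range, so these values are descriptions with no test.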

How the data were processed

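Single cells of 2 libraries (Veh 1, Doxo 1) were analysed. Per the paper's methods and the submitters' processing notes, reads were counted with Cell Ranger on GRCm38 (mm10), and Partek is also named. The annotation release is not given in the sources used here. The deposited log2 values had been scaled per cell to 1000000 and logged in 2 rounds. The authors' methods name log normalization and scaling but neither that factor nor a second log. The values were inverted to UMIs, and of those up to 50 UMIs, the range checked, 99.9% were whole within 0.1 UMI. No further cell filter was applied and doublets were kept, since no caller was run.

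Cells were clustered with Seurat 5.3.0 in R 4.3.3 (2000 variable genes without the 6 factors, 35 principal components, resolution 0.1), endothelial-like cells were set aside and the rest reclustered. A plan for 3 CAR-like populations could not be met, and the first resolution with more than 2 gave 4. UMIs were summed per class and library, and log2 ratios took 0.5 UMI added to each sum. Ratios and their intervals were tested on simulated data. Genes counted had at least 20 UMIs in the class over both libraries. Levels are UMIs per 1000000 (CPM), so a gene's level can fall when others rise.

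The members, marker lists and niche list were chosen with earlier results of these data known. Named were the 6 factors, other niche genes past 1.5-fold in CAR-like cells with an interval apart from 0, and the 3 genes most alike per factor. Alternatives covered cell weights, thinning, clustering, filters, totals, the added UMI and a gate on UMIs of at least 2 of Lepr, Adipoq and Ebf3, without Ptprc UMIs. Python 3.11.15, numpy 2.4.6 and scipy 1.17.1 were used.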

Additional observations from a re-analysis of the deposited data

Results flagged for a closer look

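For Cxcl12 and Vcam1 the ratio of Doxo to Veh lay past 1.5-fold in opposite directions in different classes of cells, which is why they are set out here. The Cxcl12 log2 ratio was 1.92 in endothelial-like cells, -1.28 in osteoblast-like cells and -0.92 in chondrocyte-like cells. The Vcam1 log2 ratio was 0.70 in endothelial-like cells, -0.67 in bone and cartilage fibroblast-like cells and -1.79 in chondrocyte-like cells. The difference between classes was not tested, as there was 1 library per condition. Without the cells outside the CAR-like class that held both Adipoq and Lepr UMIs, the endothelial-like ratios were 1.11 and 0.66. The osteoblast-like Cxcl12 ratio was then -0.31, and the chondrocyte-like ratios were 0.65 for Cxcl12 and -0.19 for Vcam1. The bone and cartilage fibroblast-like Vcam1 ratio was then -0.031, with an interval that included 0.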

How the results depend on the processing

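All 6 factors were highest in CAR-like cells in both libraries in 7 other ways of weighting, thinning, clustering and filtering the cells, and without cells outside that class with Adipoq and Lepr. CAR-like log2 ratios beyond the counting interval of the main value were as follows. Thinned to 2000 UMIs: Cxcl12 0.15, Kitl -0.26, Vcam1 0.29, Gas6 0.69. With equal cell weights: Kitl -0.22, Vcam1 0.27. With 20 principal components: Cxcl12 0.19. Under a stricter cell filter (1000 genes or more, 5% mitochondrial UMIs or less): Cxcl12 0.15, Vcam1 0.062. Without the 5% of cells with most UMIs: Cxcl12 0.18, Vcam1 0.20. Without population 3: Cxcl12 0.091, Kitl -0.23, Vcam1 0.49. With the marker gate (460 Veh and 490 Doxo cells, of which 360 and 420 lay in the CAR-like cluster): Cxcl12 0.43, Kitl 0.12, Il7 0.10, Angpt1 0.42, Vcam1 0.38, Gas6 0.84. As differences of mean deposited log2 values, a scale that compresses differences: Cxcl12 -0.031, Kitl -0.064, Angpt1 0.34, Gas6 0.12. Chosen after seeing the data, population 1 alone gave Cxcl12 -0.074, Kitl -0.28, Il7 -0.69, Angpt1 -0.13, Vcam1 0.51 and Gas6 0.50, the mean of populations 1 and 2 gave Cxcl12 0.085, Kitl -0.075, Il7 -0.59, Vcam1 0.51 and Gas6 0.50, and leaving out population 4 gave Cxcl12 0.21.

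Outside CAR-like cells, 3 pairs of a factor and a class were higher past 1.5-fold and 11 lower. The higher pairs became 2 when thinned, 5 with equal cell weights or with the factors among the variable genes, 7 without cells with Adipoq and Lepr, and 6 without cells with Adipoq, the last 2 chosen after seeing the data. The lower pairs became 3 when thinned, 7 without the deepest 5%, and 2 and 1 in those added settings. Among ratios past 1.5-fold, those that turned were, in bone and cartilage fibroblast-like cells at resolution 0.2, Kitl 0.29 and Vcam1 0.10. In arteriolar and endosteal fibroblast-like cells Angpt1 turned to 0.30 when thinned. In chondrocyte-like cells Cxcl12 turned to 0.17 with equal cell weights, 0.31 on deposited values, and 0.65 and 0.68 in the added settings, Kitl to 1.09 with equal weights, and Vcam1 to 0.074 without cells with Adipoq. In endothelial-like cells Gas6 turned to -0.21 under the stricter filter, -0.37 on deposited values and -0.13 without cells with Adipoq, and in unnamed cells Kitl to 0.44 when thinned. Ratios within 1.5-fold turned too, on the UMI scale without the added settings: Cxcl12 in bone and cartilage (-0.24, up to 0.57), arteriolar and endosteal (-0.11, up to 0.46) and unnamed cells (0.48, down to -1.33), Angpt1 in bone and cartilage (up to 0.40), Gas6 in arteriolar and endosteal (down to -0.014) and Vcam1 in unnamed cells (up to 0.15). Osteoblast-like Vcam1 had 0 Doxo UMIs with 20 principal components, at resolution 0.2 and under the stricter filter. Lower ratios past 1.5-fold stayed so for Angpt1 and Il7 in arteriolar and endosteal cells in 5 of 9 and 3 of 9 settings, and for Cxcl12 in osteoblast-like and chondrocyte-like cells in 5 of 9 and 6 of 9. Where a value moved, the cause was not tested. With at least 50 UMIs the share of genes higher past 1.5-fold was 2.80% in bone and cartilage fibroblast-like, 7.59% in osteoblast-like, 9.16% in endothelial-like and 8.14% in unnamed cells. No paired analysis was possible because each condition had 1 library, so no library could be left out either. With 20 principal components the unnamed cells gave no value. Counting intervals leave out animal-to-animal spread.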
